A study of Petunia x hybrida with 12 samples.

Results

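Pistils of open petunia flowers were compared between plants with an RNA interference construct against PhTPS1 and wild-type plants. Of the 12 libraries sequenced, the 6 of day +1 were chosen by their labels: 3 labelled tps1 and 3 labelled WT. Both groups are Petunia x hybrida cultivar Mitchell, sampled at 14:00 on day +1 relative to anthesis. The other 6 libraries, 3 of each genotype, were taken at the same hour on day -1, before anthesis, and serve here for comparison. The labels give neither the promoter of the construct, nor the number of transgenic lines, nor whether libraries came from separate plants or from pooled pistils. The labels name no control construct, so PhTPS1 silencing and any other difference between the plant stocks cannot be told apart. The p-values therefore measure library-to-library spread, some of which may be technical.

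PhTPS1 encodes a terpene synthase of the petunia flower. Terpene synthases turn prenyl diphosphates into volatile terpenes, and in petunia buds sesquiterpenes made in the floral tube gather in the enclosed space and are taken up by the pistil. KAI2 proteins, which the study's title names, are receptors of the alpha/beta hydrolase family, known for their part in karrikin responses. At day +1 the flower has opened and that enclosed space no longer exists. The comparison therefore asks how pistils of silenced and wild-type flowers differ after opening.

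Features are gene IDs that begin with Peaxi162 and a scaffold number. The deposited table pairs no ID with a name, so the transcript of PhTPS1, KAI2 pathway genes and markers of pistil, petal or pollen were not looked up, and the silencing itself and the labelled tissue were not checked. IDs are given as deposited, without product, position or sequence. Of 35812 IDs, 21239 passed the filter on low counts and were tested, with adjustment over all of them. Levels are CPM, the count of an ID relative to the scaled total of its library. Without gene lengths, a CPM compares 1 ID between libraries and not 1 ID with another.

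The 6 libraries of day +1 held 19576755 to 29614270 counts and detected 23308 to 23849 IDs each. The root mean square difference of log2(CPM + 0.5) over all tested IDs was 0.220 to 0.289 between tps1 libraries and 0.318 to 0.611 between WT libraries. Between genotypes it was 0.299 to 0.582. WT replicate 3 differed from WT replicates 1 and 2 by 0.457 and 0.611 and from the tps1 libraries by 0.299, 0.390 and 0.364, so it was closer to each tps1 library than to either WT library. A set of 585 IDs, called the co-varying set, was picked for being 4-fold or more higher in WT replicate 3 than in WT replicate 2. It took 2.99, 1.42 and 10.98% of counts in WT replicates 1, 2 and 3. In tps1 replicates 1, 2 and 3 it took 8.94, 4.85 and 6.01%. Without these IDs WT replicate 3 differed by 0.343 and 0.377 from the other WT libraries and by 0.297 to 0.335 from the tps1 libraries. The smaller distance from WT replicate 2 follows from how the set was picked. On the second principal component of the 6 libraries, which held 19.8% of the variance, the tps1 libraries lay from -18.0 to -7.93 and the WT libraries from -2.30 to 27.9, without overlap. The first component held 62.2%, and on it WT spanned -51.7 to 31.5, around all 3 tps1 libraries.

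After opening, 44 IDs had higher and 41 had lower levels in tps1 pistils (edgeR quasi-likelihood test, adjusted p under 0.05). These are 0.207% and 0.193% of the IDs tested, together 85 IDs or 0.4%. The median log2 fold change was 1.63 for the higher and -1.37 for the lower IDs, and the smallest change called was 1.33-fold. The median over all tested IDs was 0.0052, and 90% of these lay between -0.59 and 0.51. Changes over 4-fold numbered 14 among the higher and 13 among the lower IDs, and 20 of the 85 changed by 2-fold or less. At each of the 85 the libraries of one genotype all lay above those of the other, which held for 23.9% of tested IDs, and the calls rest on these same values. The last ID inside the threshold had an edgeR adjusted p of 0.0490 and the first outside had 0.0521. The count fell to 40, 46 and 50 without WT replicates 1, 2 and 3 of day +1, and to 26, 54 and 34 without tps1 replicates 1, 2 and 3. It was 195 with the day +1 libraries fitted alone and 316 with DESeq2, of which 67 and 85 were among the 85.

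**Figure D1:**
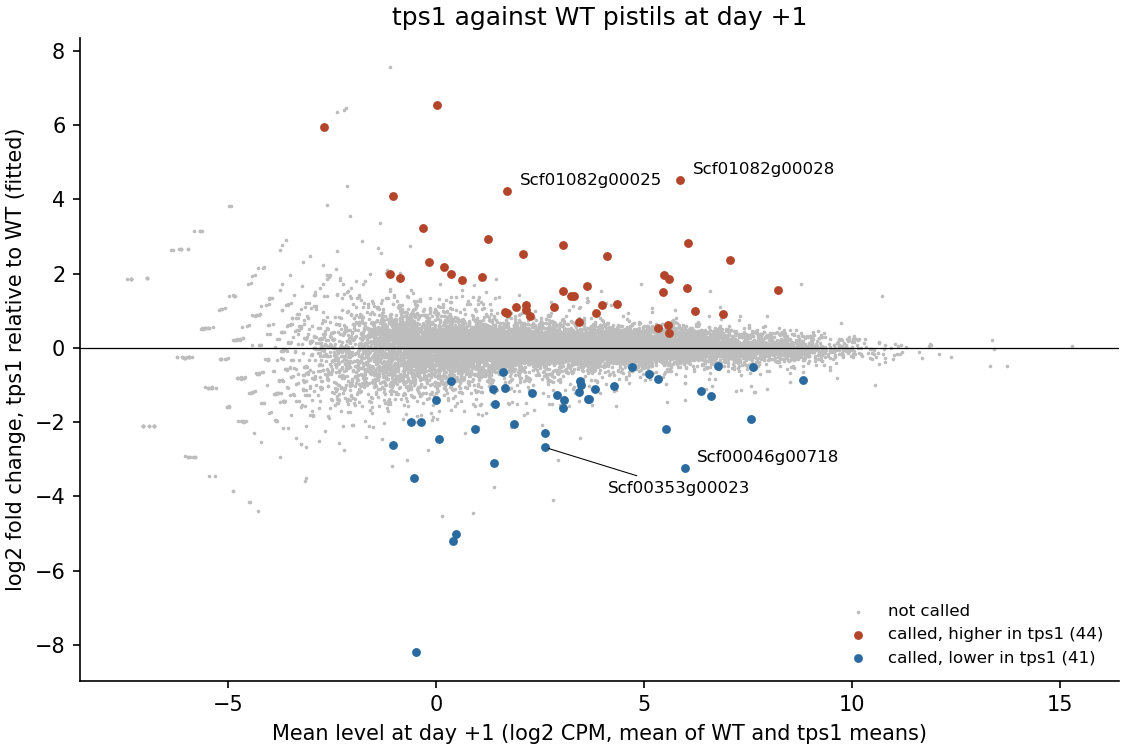
Fitted log2 fold change of tps1 relative to WT at day +1 (vertical) against the mean of both group means in log2 CPM (horizontal), with 1 point per tested ID. The 24 tested IDs with no count in any day +1 library are not drawn. The 44 higher and 41 lower IDs are 0.4% of those tested. They include 7 at 100 CPM or more (0.354% of the IDs at that level) and none of the 100 IDs with the most reads. Labels mark 4 IDs described in the text.

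The IDs called in the reported fit held a small part of the counts, which does not bound the shift among IDs that were not called. The 85 IDs together held 0.220 to 0.278% of the counts of a day +1 library. None of the 100 IDs with the most reads was called, which is near the 0.4% called among all tested IDs. These 100 held 20.6 to 22.7% of the counts. Of these 100, 97 had a fitted change under 1.5-fold, and 2 changed by more than 2-fold as fitted, with a range over the 100 from -1.01 to 1.41 on the log2 scale. The called ID with the most reads was at rank 261. Among IDs at 100 CPM or more, 7 of 1977 were called (0.354%). The share was 0.283% of 10589 at 10 to 100 CPM, 0.613% of 6039 at 1 to 10 CPM and 0.418% of 2634 under 1 CPM. The median change of the called IDs, regardless of sign, was 2.61 on the log2 scale under 1 CPM and 0.92 at 100 CPM or more. Precision was lowest at few reads. The half-width of the 95% interval of a log2 fold change was 1.12 at the median below 1 CPM, 0.51 at 1 to 10 CPM, 0.26 at 10 to 100 CPM and 0.30 at 100 CPM or more.

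For the 21154 IDs that were not called, the interval shows what size of change remained possible. For 15879 of them (75.1% of those with an interval) the 95% interval lay inside a 2-fold change in either direction, and for 11740 (55.6%) inside a 1.5-fold change. The interval of 5251 IDs reached a 2-fold change. An interval inside 2-fold was found for 12.4% of uncalled IDs below 1 CPM, 69.8% at 1 to 10 CPM, 91.6% at 10 to 100 CPM and 86.2% at 100 CPM or more. These pistils are bulk samples, in which fewer cells of a type and less RNA per cell cannot be told apart.

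The largest changes at well-covered IDs were found on the higher side. By a rule of size (called, with at least 5 CPM in each library of the higher group), Peaxi162Scf01082g00028 and Peaxi162Scf01082g00025 led the higher IDs and Peaxi162Scf00046g00718 and Peaxi162Scf00353g00023 the lower IDs. Peaxi162Scf01082g00028 stood at 112, 109 and 117 CPM in tps1 replicates 1, 2 and 3 and at 4.37, 5.08 and 5.29 CPM in WT. The lowest tps1 library was far above the highest WT library, and the 3 libraries of a genotype lay close together. The difference was 22.9-fold (log2 fold change 4.52 ± 0.177 SE, edgeR adjusted p = 2.18e-06). Before opening the same ID was at 107, 106 and 110 CPM in tps1 and at 8.31, 6.14 and 10.5 CPM in WT, so the gap was there on both days (log2 fold change 3.70, edgeR adjusted p = 1.02e-05).

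Peaxi162Scf01082g00025, on the same scaffold, was at 6.34, 5.85 and 6.46 CPM in tps1 and at 0.218, 0.412 and 0.353 CPM in WT at day +1. In counts these were 169, 121 and 185 reads against 4, 9 and 7. The groups did not overlap, and the WT libraries were close to the limit of detection. Its place among the tested IDs rests on tps1, since it passed the filter on low counts only through tps1 libraries. The log2 fold change was 4.21 ± 0.499 SE (edgeR adjusted p = 0.00609). Before opening the level was 4.41, 5.08 and 6.41 CPM in tps1 and 0.177, 0.0657 and 0.589 CPM in WT, again without overlap (a log2 fold change of 4.28, edgeR adjusted p = 0.00755). Both IDs were called in all 24 alternative settings.

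Peaxi162Scf00046g00718 was lower in tps1, at 13.9, 9.82 and 12.7 CPM against 212, 83.5 and 46.9 CPM in WT at day +1. All 3 tps1 libraries lay below the lowest WT library, but WT replicate 1 stood well above the other two. The log2 fold change was -3.23 ± 0.454 SE (edgeR adjusted p = 0.0133), and -2.42 without WT replicate 1 (edgeR adjusted p = 0.00564). Before opening, at day -1, no such gap was seen, with 9.80, 8.28 and 10.4 CPM in tps1 and 8.40, 7.99 and 8.79 CPM in WT (log2 fold change 0.18, 95% interval -0.78 to 1.14). The call was lost without any 1 of the 3 tps1 libraries of day +1 (edgeR adjusted p = 0.0766, 0.0836 and 0.0951) and with the day +1 libraries fitted alone, without or with the replicate block (edgeR adjusted p = 0.0673 and 0.147).

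Peaxi162Scf00353g00023 was at 1.80, 1.5 and 1.68 CPM in tps1 and at 10.1, 10.8 and 11.2 CPM in WT at day +1. Both groups were tight and did not overlap (log2 fold change -2.68 ± 0.331 SE, edgeR adjusted p = 0.00684). On day -1 it was near the limit of detection in every library, at 0.183 to 0.412 CPM in tps1 and 0.0657 to 0.337 CPM in WT. The call was lost without tps1 replicate 1 or replicate 3 of day +1 (edgeR adjusted p = 0.0535 and 0.0577). For these 4 IDs the difference between the genotype effects of the days was not past the threshold. It was 0.82 and -0.07 on the log2 scale for the higher IDs and -3.41 and -3.34 for the lower IDs (edgeR adjusted p = 0.627, 1.00, 0.226 and 0.202).

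**Figure D2:**
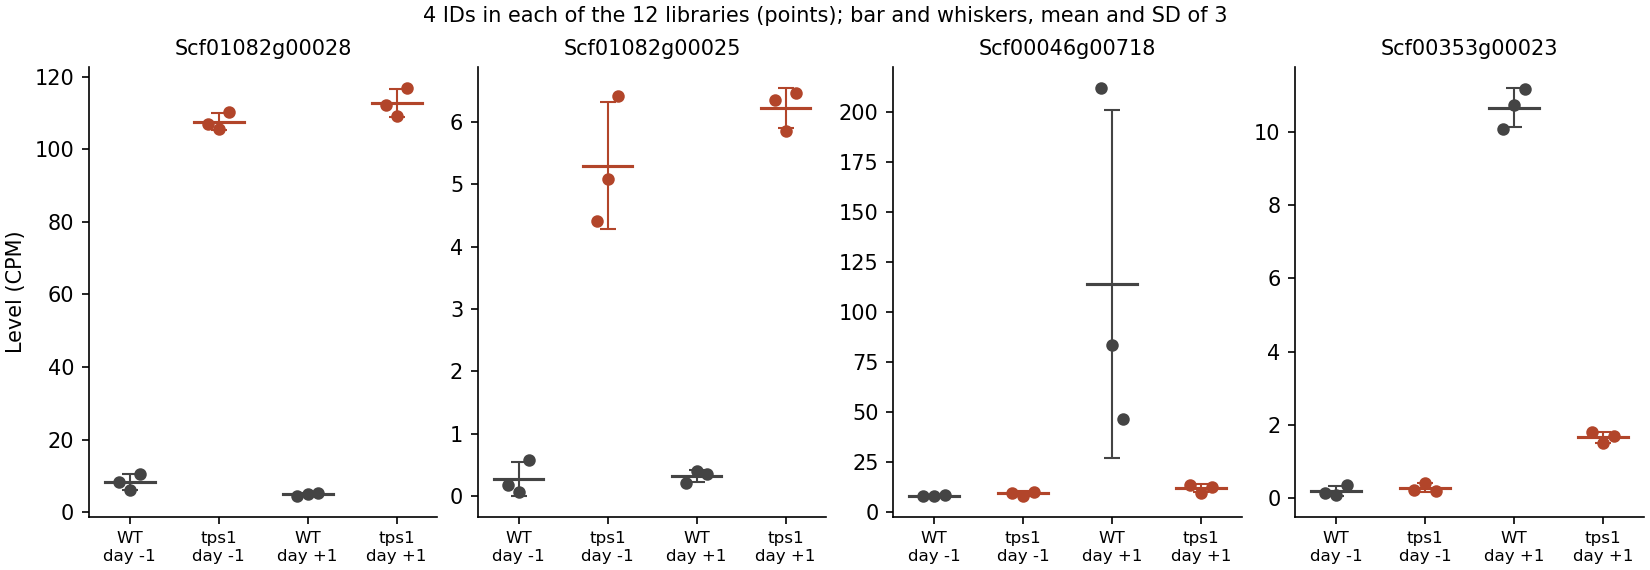
Level in CPM (vertical, scale differing by panel) of 4 IDs in each of the 12 libraries, by group (horizontal), with points for libraries, bars for means and whiskers for SD. Both IDs on the left are high in tps1 on both days, while both on the right are high in the WT libraries of day +1, where Scf00046g00718 ranges from 46.9 to 212 CPM.

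Of the 37 called IDs at 10 CPM or more, 3 differed by over 2-fold between WT libraries of day +1 and 0 between tps1 libraries. This is near the background, since among the 12566 tested IDs at this level 5.48% did so in WT and 1.03% in tps1. These 3 are Peaxi162Scf00046g00718, described above, and Peaxi162Scf00057g00183 and Peaxi162Scf00313g00914, which were named after their values were seen. Peaxi162Scf00057g00183 was at 112, 70.4 and 46.8 CPM in WT replicates 1, 2 and 3 and at 22.5, 12.4 and 15.5 CPM in tps1 (log2 fold change -2.18 ± 0.367 SE, edgeR adjusted p = 0.0341). Peaxi162Scf00313g00914 was at 460, 286 and 162 CPM in WT and at 94.0, 69.0 and 79.3 CPM in tps1 (log2 fold change -1.90 ± 0.306 SE, edgeR adjusted p = 0.0285). In all 3 IDs no tps1 library reached the lowest WT library. Peaxi162Scf00057g00183 and Peaxi162Scf00313g00914 were called in 11 and 13 of the 24 alternative settings.

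At the other end, 4 called IDs had 3 counts or fewer over the 3 libraries of 1 genotype. They too were named after their values were seen. All 4 passed the filter on low counts only through libraries of the genotype where they are high, so their place among the tested IDs rests on that genotype. Peaxi162Scf00013g00518 had 19, 39 and 30 counts in WT and 0 in each tps1 library at day +1. Against a floor of 3 counts over the group it was at least 37.1-fold lower in tps1 (edgeR adjusted p = 0.0131). On day -1 it had 246 counts in WT and 6 in tps1, so it was nearly undetected in tps1 on both days. Peaxi162Scf00385g00512 had 6, 8 and 9 counts in tps1 and 0 in each WT library, which puts it at least 6.06-fold higher in tps1 against the same floor (edgeR adjusted p = 0.0353). It was called in 6 of the 24 alternative settings. Its tps1 libraries of day +1 were too low for the filter, which it passed through 25, 22 and 13 counts in tps1 at day -1. Peaxi162Scf00111g00521 had 154 counts in tps1 and 1 in WT, a ratio of 122 with an exact 95% interval of 21.5 to 4841. Peaxi162Scf00382g00032 had 70 against 3, a ratio of 18.5 (6.06 to 91.6). These intervals cover counting error only.

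The day -1 libraries did not enter the day +1 fold changes, though they shared in the low-count filter, the scaling and the estimate of spread behind the 85 calls. They show where the differences stood before the flower opened. The 44 IDs higher at day +1 had a median log2 fold change of 0.99 at day -1, and the 41 lower IDs had -0.31, against -0.02 over all tested IDs. The 95% interval of the day -1 change lay wholly on the side of the day +1 change for 28 of the 44 higher and 19 of the 41 lower IDs. Over all tested IDs this held for 4.54%. At day -1, 17 of the 44 and 5 of the 41 were themselves called in the same direction (edgeR adjusted p under 0.05), where 0.184% of tested IDs were called in either direction. Part of the excess over all tested IDs is built in for the intervals and for the calls. An ID with a small estimate of spread is more easily called at day +1, and the same estimate narrows its day -1 interval. The other 63 of the 85 were called at day +1 alone, which does not show that their effects differed between days. The direct test of that difference passed for 1 of the 85, and for 0.00471% of tested IDs.

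By size of the day +1 change, the day -1 values were as follows, with no test between classes. The 6 IDs higher by over 8-fold had a median log2 fold change of 4.37 at day +1 and 3.52 at day -1, and the lowest of their day -1 values was 2.21. With Peaxi162Scf00385g00512 at its bound the day +1 median is 4.15. The 8 IDs higher by 4- to 8-fold had medians of 2.503 and 2.19, and the 20 higher by 2- to 4-fold had 1.55 and 0.92. The 10 higher by up to 2-fold had 0.88 at day +1 and -0.10 at day -1. In every size class of both directions the day -1 median was nearer to 0 than the day +1 median. Among lower IDs it was -1.52 against -4.26 at day +1 for the 6 lower by over 8-fold, -0.31 against -2.29 for the 7 lower by 4- to 8-fold, -0.31 against -1.34 for the 18 lower by 2- to 4-fold, and -0.22 against -0.77 for the 10 lower by up to 2-fold. The classes were formed on the day +1 estimates, so the day +1 medians follow from them and the day -1 medians do not. IDs picked for large estimates on one day tend to have smaller estimates on another. The smaller day -1 medians therefore do not show that effects grew between the days.

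**Figure D3:**
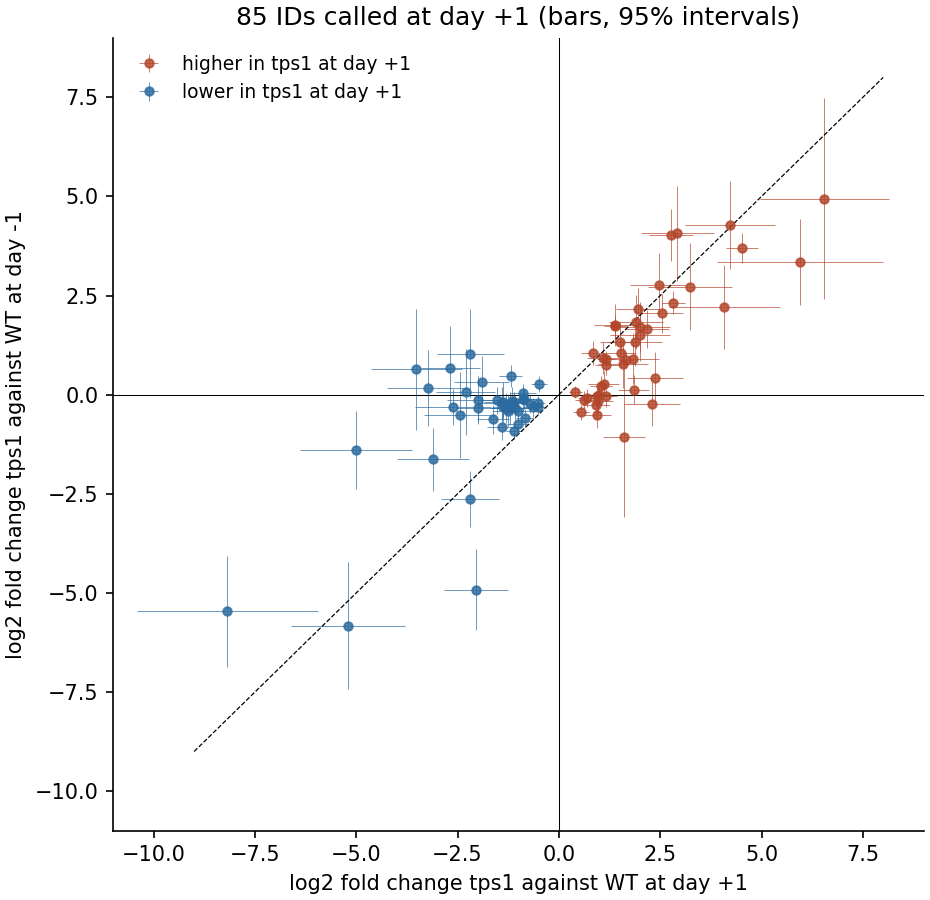
Log2 fold change of tps1 against WT at day -1 (vertical) against that at day +1 (horizontal) for the 85 IDs called at day +1, with 95% intervals and a dashed line of equal values. Most points of the lower IDs lie near 0 on the vertical axis, though the day -1 interval of 19 of the 41 lay wholly below 0. Some higher IDs lie near the dashed line. The day -1 interval excluded the day +1 estimate for 29 of the 44 higher and 38 of the 41 lower IDs. Those day +1 estimates were selected by the calls.

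Levels of the same IDs are given next in CPM. The median of each group can fall on a different ID, so the medians of a pair of groups do not give the median fold change. The gaps at day +1, also in the numbers of IDs under 1 CPM, follow from calling on these values. Across the 44 higher IDs the median of the group means at day +1 was 4.46 CPM for WT and 13.0 CPM for tps1, and 8.20 and 9.89 CPM at day -1. Across the 41 lower IDs at day +1 it was 10.7 CPM for WT and 4.11 CPM for tps1, and 13.1 and 10.1 CPM at day -1. In tps1 at day +1, 12 of the 41 lower IDs had a mean under 1 CPM, against 1 of 41 in WT. Of the 44 higher IDs, 13 had a mean under 1 CPM in WT and 4 in tps1.

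**Figure D4:**
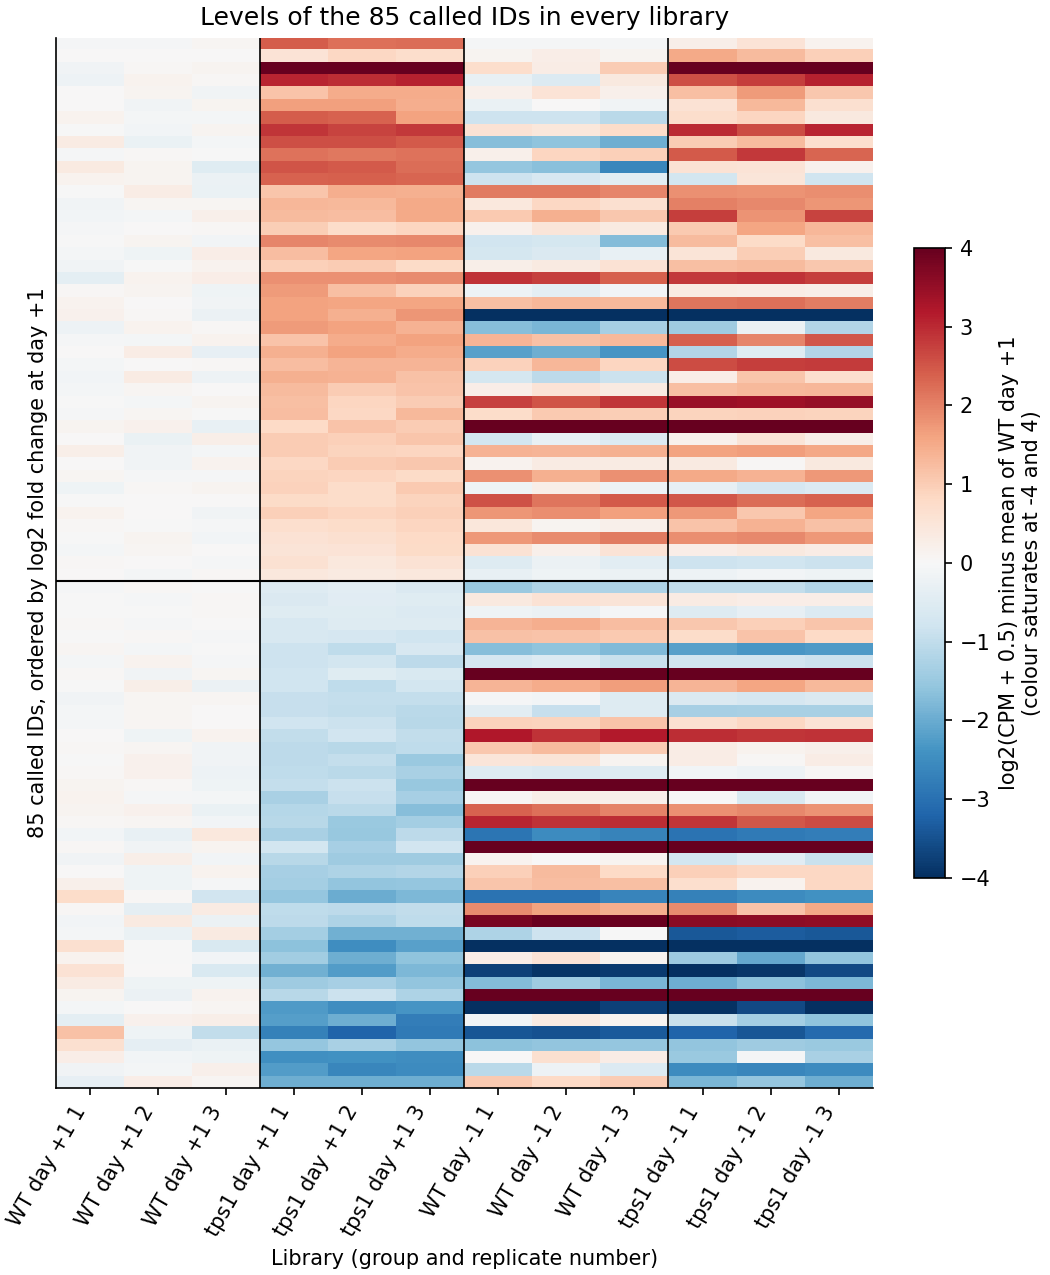
Level of each of the 85 called IDs (rows, ordered by log2 fold change at day +1) in the 12 libraries (columns), as log2(CPM + 0.5) minus the mean of the 3 WT day +1 libraries. Red is higher and blue lower. The 3 tps1 libraries of day +1 have like colours in each row, and in many upper rows the tps1 libraries of day -1 are redder than the WT libraries of day -1. The day -1 columns also carry the change between days.

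Scaffold numbers in the IDs show which called IDs lie on 1 assembled piece of the genome. The 85 IDs fell on 73 of the 1380 scaffolds with a tested ID. Of the 85, 22 shared a scaffold with another called ID (25.9%), on 10 scaffolds. That number depended on the fit. It was 13 of 90 called IDs with limma-voom and 59 of 195 with the day +1 libraries alone. Without 1 day +1 library it was 6 of 40, 10 of 46 and 6 of 50 (WT replicates 1, 2 and 3) and 4 of 26, 10 of 54 and 6 of 34 (tps1 replicates 1, 2 and 3). Of the 21154 IDs not called as reported, 12.1% lay on a scaffold with a called ID. Such a share depends on how many IDs are called, and it was not taken for the other fits. Their counts therefore cannot be set against 12.1%. On 6 of the 10 scaffolds all called IDs changed in 1 direction. With 44 called IDs higher and 41 lower, many pairs would agree in direction by chance, and this number was not tested. Scaffold 01082 had 9 tested IDs, of which 3 were called higher in tps1 at day +1 and none lower. Besides Peaxi162Scf01082g00025 and Peaxi162Scf01082g00028 this was Peaxi162Scf01082g00113, at 0.863, 0.629 and 0.734 CPM in tps1 and 0.164, 0.183 and 0.201 CPM in WT (edgeR adjusted p = 0.0326). Its call held in 11 of the 24 alternative settings. Like Peaxi162Scf01082g00025, it passed the filter on low counts only through tps1 libraries. The other 6 were not called at day +1, with log2 fold changes from -1.37 to 1.73. Of these, Peaxi162Scf01082g00314 was called lower in tps1 at day -1 (log2 fold change -4.30, edgeR adjusted p = 0.04865). Peaxi162Scf01082g00025 and Peaxi162Scf01082g00028 were called higher on that day.

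Scaffold 03648 had 2 tested IDs, and both rose. Peaxi162Scf03648g00013 was at 72.9, 69.4 and 71.1 CPM in tps1 and 18.1, 20.03 and 17.1 CPM in WT (log2 fold change 1.95 ± 0.245 SE, edgeR adjusted p = 0.00696). Peaxi162Scf03648g00020 was at 15.1, 15.1 and 13.8 CPM in tps1 and 2.78, 1.69 and 1.96 CPM in WT (log2 fold change 2.77 ± 0.246 SE, edgeR adjusted p = 0.00135). Both were also higher in tps1 at day -1 (log2 fold changes 2.15 and 4.03, edgeR adjusted p = 0.00755 and 0.000296). Scaffold 00305 held a pair, consecutive among its tested IDs, that changed in opposite directions. Peaxi162Scf00305g00091 was at 1.95, 1.16 and 1.19 CPM in tps1 and 5.51, 4.76 and 7.55 CPM in WT (edgeR adjusted p = 0.0434). Peaxi162Scf00305g00099 was at 73.9, 75.1 and 78.7 CPM in tps1 and 15.7, 22.6 and 24.8 CPM in WT (edgeR adjusted p = 0.00139). Neither pair of groups overlapped. The call of Peaxi162Scf00305g00091 held in 9 of the 24 alternative settings and in 0 of the 6 that left out a day +1 library, so the opposite directions rest on a weak call. At day -1 the first was at 0.110 to 0.127 CPM in tps1 and 2.21 to 5.72 CPM in WT (edgeR adjusted p = 0.00283), while the second stood at 144 to 156 CPM in tps1 and 109 to 157 CPM in WT, with overlap. Apart from those named by the rule of size, the IDs on these 3 scaffolds were chosen after their values were seen, and reads shared by near-identical copies cannot be recognised from IDs.

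Calls held to differing degrees when the analysis was changed. Of the 85 IDs, 59 were also called by DESeq2, by limma-voom and with the day +1 libraries alone, 33 of them higher and 26 lower. Without each day +1 library in turn, 23 IDs were called every time (15 higher, 8 lower), and 26 were called in none of these 6 fits. In all 24 alternatives 9 IDs were called, 7 higher and 2 lower. The 7 had log2 fold changes of 1.39 to 4.52 at day +1 and 0.87 to 4.28 at day -1, and all 7 were called at day -1 as well. The 2 lower IDs had -1.61 and -1.19 at day +1, and neither was called at day -1. IDs with a small estimate of spread stay called more easily across these settings, and the same estimate eases a day -1 call. Part of the overlap of the 7 with the day -1 calls is therefore built in.

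**Figure D5:**
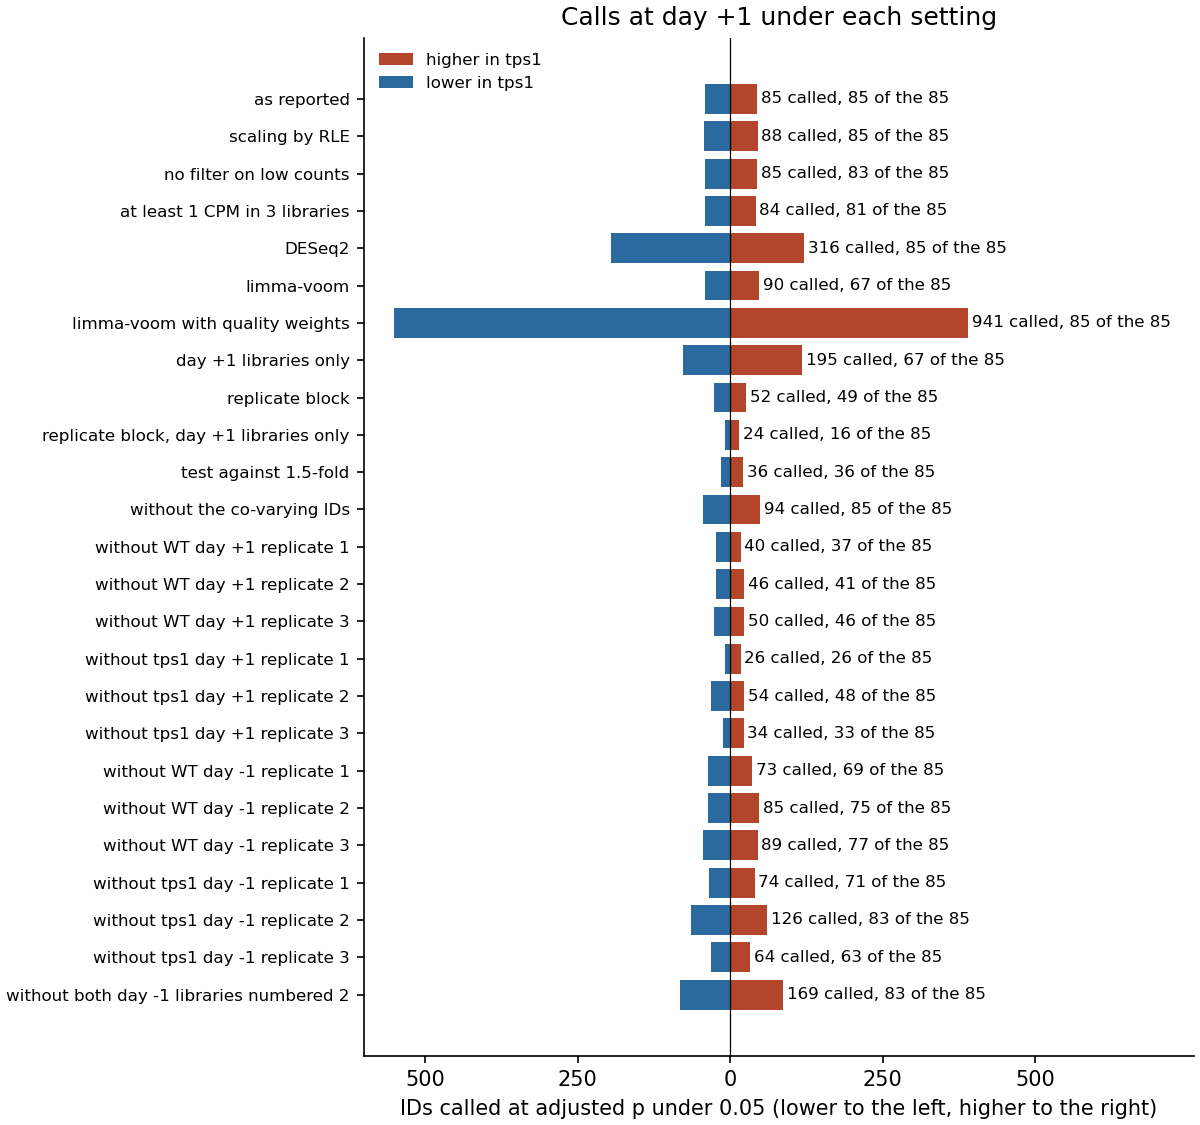
Number of IDs called higher (right) and lower (left) in tps1 at day +1 for the reported fit and 24 alternatives (rows), with the total and how many of the reported 85 were called again. Totals range from 24 to 941 against 85 as reported.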

How the data were processed

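The deposited table holds raw read counts per gene ID for 12 libraries. Per the submitters' processing notes, the authors used cutadapt, TopHat2 and HTSeq. Their versions, the genome build and the multi-mapping and strand settings are not stated in the labels or notes used here. Columns were matched to samples through the names in the sample descriptions. The tests ran in edgeR 4.0.16 under R 4.3.3: filterByExpr (minimum count 10), TMM scaling, and 1 quasi-likelihood fit with a mean per group over all 12 libraries (common dispersion 0.0607), which lends the day +1 contrast the spread of the day -1 libraries. P-values were adjusted by Benjamini-Hochberg over all 21239 tested IDs, with a threshold of 0.05. An SE is the log2 fold change divided by the square root of F, an approximation, and 95% intervals use it. For 24 IDs F gave no interval. The named IDs are the 2 higher and 2 lower called IDs with the largest log2 fold change among those with at least 5 CPM in each library of the higher group, and any others are said to be chosen later. The comparison, lists and the co-varying set (a change of 4-fold or more from replicate 2 to replicate 3 of WT at day +1, with a mean of 5 CPM or more) were chosen with earlier results of these data known. Gene and marker lists needed names and were not tested. Libraries of a group differed by more than counting noise (chi-square over degrees of freedom 7.80 to 95.8 at day +1), so none was taken as a duplicate. Alternatives used DESeq2 1.42.0 and limma 3.58.1 (voom) among others.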

Additional observations from a re-analysis of the deposited data

Results flagged for a closer look

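Peaxi162Scf00549g00222 had a genotype effect at day +1 that was below its effect at day -1 (a log2 difference of -1.66, edgeR adjusted p = 0.0439). It was the 1 ID among the 85 for which the test of this difference passed. At day +1 it was at 7.17, 6.97 and 5.87 CPM in tps1 and at 15.7, 17.0 and 13.0 CPM in WT, without overlap (log2 fold change -1.19 ± 0.126 SE, edgeR adjusted p = 0.00381). Before opening it was at 13.9, 13.0 and 15.8 CPM in tps1 and 10.5, 9.99 and 10.4 CPM in WT, again without overlap but in the other order (a log2 fold change of 0.47, edgeR adjusted p = 0.359). The difference still passed when replicate 2 of tps1 day -1 or replicate 3 of WT day +1 was omitted (edgeR adjusted p = 0.0217 and 0.0262). It missed the threshold without any 1 of the other 10 libraries, with edgeR adjusted p from 0.0726 to 0.188, while its size stayed between -1.76 and -1.57. The call at day +1 itself held in all 24 alternatives.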

How the results depend on the processing

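The number of IDs called, 85, was 84 to 94 with RLE scaling, other low-count filters, limma-voom or without the co-varying IDs. Of the 85, limma-voom called 67 again, against 81 to 85 for the others just listed. The number called was 316 with DESeq2 (121 higher, 195 lower) and 941 with limma-voom and library quality weights (390 higher, 551 lower). It was 195 with the day +1 libraries alone (118 higher, 77 lower), 36 in the test against a 1.5-fold change, and 169 without both day -1 libraries numbered 2. Leaving out 1 library gave 26 to 54 at day +1 and 64 to 126 at day -1. Fewer libraries also give less power. The number of called IDs sharing a scaffold, 22, was 4 to 30 with 1 library left out and 6 in the 1.5-fold test. It was 11 and 8 with the replicate block over all libraries and at day +1 alone. With DESeq2 it was 136 of 316 called IDs, and with quality weights 636 of 941. Such numbers tend to rise with the number of IDs called, and no share among uncalled IDs was taken for these fits. The replicate number as a replicate block gave 52 IDs over all libraries and 24 with the day +1 libraries alone. Same-numbered WT and tps1 libraries of day +1 deviated from their group means with correlations of -0.21, 0.48 and -0.16. Only the day +1 libraries numbered 2 correlated best with their own number. Same-numbered libraries of day -1 had correlations of 0.19, -0.21 and -0.42, and none of them correlated best with its own number. The deviations of the 3 libraries of a group sum to 0, so these correlations depend on one another. They cannot settle whether the numbers pair the samples. All 4 named IDs kept their direction in all 24 alternatives, with log2 fold changes of 4.44 to 4.58 (Peaxi162Scf01082g00028), 4.01 to 4.41 (Peaxi162Scf01082g00025), -3.60 to -2.42 (Peaxi162Scf00046g00718) and -2.74 to -2.61 (Peaxi162Scf00353g00023), and were past the threshold in 24, 24, 19 and 22 of them.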
